A study of Schizosaccharomyces pombe with 8 samples.

Results

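A set of 91 fission yeast mRNAs, chosen by their high read count in a TAP-Mmi1 pulldown relative to the extract it was made from, is described here out of 4954 mRNA-type IDs with enough reads to be judged. The experiment was a sequential RNA immunoprecipitation followed by sequencing (seqRIP-seq), which retained first TAP-Mmi1 on IgG beads and then 3xFLAG-Mei2 on anti-FLAG beads. An ID became a member when its count was at least 200 in each of the 4 whole cell extract (WCE) libraries and when the immunoprecipitate (IP) over WCE ratio of counts, within TAP-Mmi1 replicate 1 and within replicate 2, was above 0.8. Of 107 IDs that met these limits, 16 belong to a list of 17 excepted IDs and were set aside, so the members are what remained. The ratio in the TAP-Mmi1 strain therefore chose the members and is given below as a description.

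The 8 libraries came from 2 replicates each of the TAP-Mmi1 IP, the GFP-Mmi1 IP, the TAP-Mmi1 WCE and the GFP-Mmi1 WCE. Both strains expressed Mmi1 from the nmt41 promoter and 3xFLAG-Mei2 from the stronger nmt1 promoter, so the levels of both proteins were set by these thiamine-regulated promoters in place of their own. Cells were grown mitotically in minimal medium at 30 °C for 2 days, collected at an OD of 1 and crosslinked with 0.2% formaldehyde. The GFP-Mmi1 strain lacked a TAP tag for IgG to retain, and its IP served as the control. Summed over all features, the TAP-Mmi1 IPs held 36440646 and 37818703 counts, with 34496373 and 34416171 in the GFP-Mmi1 IPs, 53709147 and 49999623 in the TAP-Mmi1 WCEs, and 36449461 and 36456724 in the GFP-Mmi1 WCEs. Only WCE samples underwent rRNA depletion, and rRNA features took up 79.2% and 81.9% of TAP-Mmi1 IP reads, 96.4% and 96.0% in the GFP-Mmi1 IPs, and between 7.98% and 27.4% in the WCEs. A raw ratio of 0.8 is thus a limit on reads, not on molecules. Counts of the members made up 11.1% and 10.8% of all counts on the 4954 mRNAs in the TAP-Mmi1 IPs and 1.87% and 2.97% in the GFP-Mmi1 IPs, against 0.899% and 0.855% in the TAP-Mmi1 WCEs and 0.793% and 0.846% in the GFP-Mmi1 WCEs.

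Mmi1 is a YTH-family RNA-binding protein that recognizes UNAAAC motifs, which are repeated in regions called determinants of selective removal (DSR) of meiotic transcripts, and directs these transcripts to the nuclear exosome during mitotic growth. Mei2 is the RNA-binding protein that drives entry into meiosis and counteracts Mmi1 together with the non-coding meiRNA. Meiosis in fission yeast includes a horsetail stage, in which dynein and dynactin pull the nucleus back and forth by its clustered telomeres, and recombination on linear elements, a reduced form of the synaptonemal complex. Of the 91 members, 90 were matched to the RefSeq annotation of ASM294v3, and 89 of these are protein coding there. The ID SPBC8E4.02c is annotated as prt2, a long non-coding RNA that represses the phosphate transporter gene pho84, so the name mRNA is wrong for it by this annotation, and SPCC622.05 had no match. Members lay on chromosomes I (30), II (32) and III (28), so that 31.1% of them were on chromosome III against 18.2% of all 4954 mRNAs that were matched.

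TAP-Mmi1 ratios of the members ran from 0.801 to 70.1 in replicate 1 and from 0.801 to 9.75 in replicate 2, with medians of 1.14 and 1.56. The median of the mean ratio was 1.29 for members and 0.122 for all 4954 mRNAs. Beyond the limit that chose them, 55 members exceeded 1 in both replicates, 25 had a mean above 2 and 13 a mean above 3. The ratio was higher in replicate 2 than in replicate 1 for 83 members, against 82.2% of all 4954 mRNAs. In the GFP-Mmi1 strain, the median of the members' mean ratio was 0.0435, beside 0.0277 for all mRNAs. Both TAP-Mmi1 ratios lay above both GFP-Mmi1 ratios in 90 members, and the same held for 92.8% of all mRNAs. The TAP-Mmi1 mean ratio was a median of 35.4 times the GFP-Mmi1 mean ratio among members, with 4.41 times among all mRNAs. The control values rest on few reads, since 25 members had fewer than 30 counts in at least 1 of the GFP-Mmi1 IPs.

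**Figure D1:**
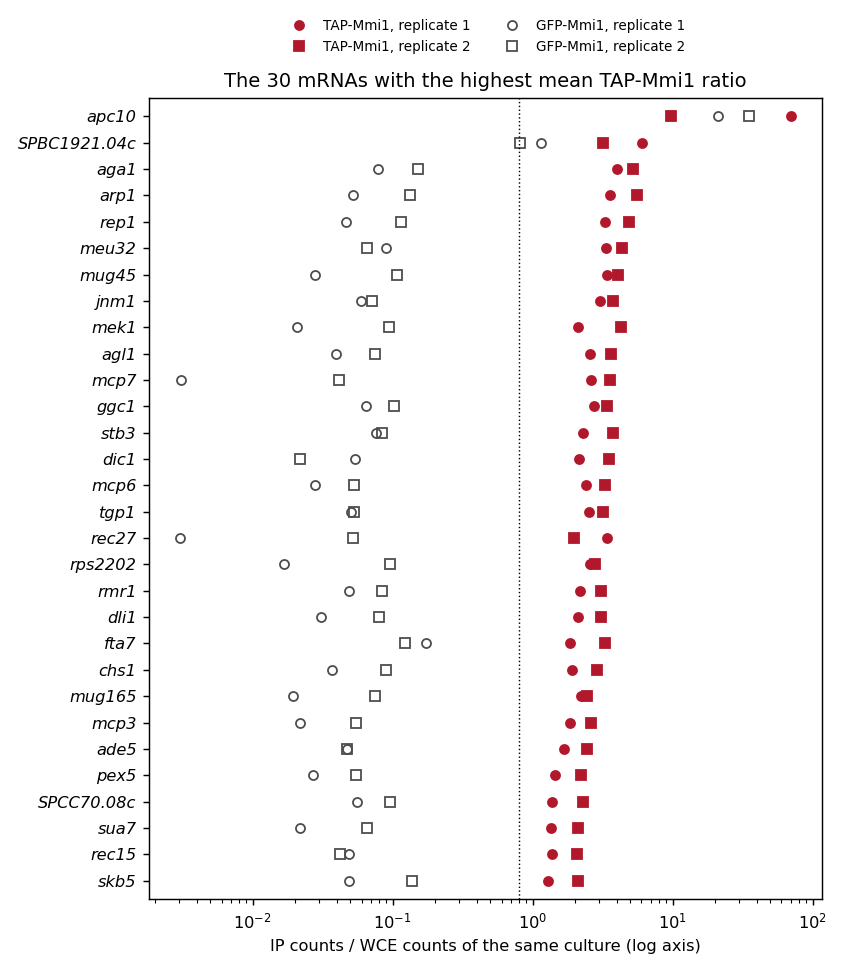
IP counts over WCE counts of the same strain and replicate on a log axis for the 30 members with the highest mean TAP-Mmi1 ratio, 1 row per gene. Filled points are the 2 TAP-Mmi1 replicates, open points are the 2 GFP-Mmi1 replicates, and the dotted line is the limit of 0.8. The filled points lie right of the open ones in every row but that of apc10, where they surround them.

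The 2 members with the highest mean ratios stood apart from the others. apc10, a substrate-recognition subunit of the anaphase-promoting complex, had 43633 and 4221 counts in the TAP-Mmi1 IPs and 622 and 433 in the TAP-Mmi1 WCEs. Its counts in the control were as lopsided, with 8651 and 16160 in the GFP-Mmi1 IPs against 412 and 457 in the GFP-Mmi1 WCEs. This gave ratios of 70.1 and 9.75 with TAP-Mmi1, against 21 and 35.4 with GFP-Mmi1, so the 2 strains overlapped. apc10 (chromosome II, 1973362 to 1974265) lies 124 nt from leu1, an excepted ID and a gene of leucine synthesis, which had 7.69 and 1.54 with TAP-Mmi1, against 3.22 and 6.88 with GFP-Mmi1. In both genes replicate 1 was the higher with TAP-Mmi1 and replicate 2 the higher with GFP-Mmi1. The unnamed gene SPBC1921.04c had ratios of 6.1 and 3.18 with TAP-Mmi1, against 1.16 and 0.812 with GFP-Mmi1. The snoRNA sno20 lies entirely within it on the opposite strand and had a mean TAP-Mmi1 ratio of 4.73, beside 4.64 for SPBC1921.04c. Another member, SPCC1235.17, reached 0.834 and 0.981 with TAP-Mmi1, against 0.215 and 0.183 with GFP-Mmi1.

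aga1, which encodes a glutamate N-acetyltransferase of arginine synthesis, led the remaining members. Its counts were 24916 and 21685 in the TAP-Mmi1 IPs against 6204 and 4142 in the TAP-Mmi1 WCEs, and 305 and 608 in the GFP-Mmi1 IPs against 3848 and 3986 in the GFP-Mmi1 WCEs. The mean ratio was 4.63 ± 0.862 with TAP-Mmi1, against 0.116 ± 0.0518 with GFP-Mmi1 (SD, n = 2 each). It held only 2 Mmi1 motifs, or 1.04 per kb.

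Several members encode parts of the dynein and dynactin motor or act in nuclear movement with it. arp1, the actin-related protein of the dynactin filament, had 4419 and 4963 counts in the TAP-Mmi1 IPs against 1246 and 892 in the TAP-Mmi1 WCEs. In the control it had 42 and 116 in the GFP-Mmi1 IPs against 808 and 868 in the GFP-Mmi1 WCEs, and no control ratio came near those with TAP-Mmi1 (4.56 ± 1.43 with TAP-Mmi1, 0.0928 ± 0.0577 with GFP-Mmi1). jnm1, the dynamitin subunit of dynactin, had ratios of 3.03 and 3.77 with TAP-Mmi1, against 0.06 and 0.0709 with GFP-Mmi1. dic1, the dynein intermediate chain of meiosis, had 2.15 and 3.54 with TAP-Mmi1, against 0.0541 and 0.0218 with GFP-Mmi1. dli1, a light intermediate chain of the same motor, reached 2.1 and 3.09 with TAP-Mmi1, against 0.0307 and 0.0796 with GFP-Mmi1. mcp6, the horsetail movement protein also known as Hrs1, gave 2.42 and 3.27 with TAP-Mmi1, against 0.028 and 0.0534 with GFP-Mmi1. bqt1, which links telomeres to the spindle pole body in the bouquet, sat lower at 0.827 and 1.39 with TAP-Mmi1, against 0.0191 and 0.026 with GFP-Mmi1. In all 6 both TAP-Mmi1 ratios lay above both GFP-Mmi1 ratios, as they did in 92.8% of all 4954 mRNAs. Of 9 genes on the list for nuclear movement and the bouquet with at least 200 counts in each WCE, 3 (bqt1, dli1 and mcp6) were members and 1 was an excepted ID. The dynein heavy chain gene dhc1 had 0.395 and 0.54 with TAP-Mmi1 and the light chain gene dlc1 0.0405 and 0.033, so subunits of 1 motor ranged widely. One symbol of that list and of the list of Mmi1 targets below, hrs1, matched a histidine-tRNA ligase gene in the annotation, which is another gene than mcp6. To show what the motor transcripts carry, the densest 30 bases of UNAAAC motifs on the sense strand are given 5′ to 3′ in DNA letters, from the RefSeq genome sequence ASM294v3, with each motif in capitals.
arp1, chrII:4084466-4084495, plus strand: tatttttaTGAAACgTTAAACgttccagca
jnm1, chrIII:1456313-1456342, plus strand: aaggaacTGAAACcaaaTAAAACccctaaa
dic1, chrII:960350-960379, minus strand: ataTTAAACgagaaattgaaaTCAAACgag
dli1, chrI:4737941-4737970, minus strand: tTTAAACctcgagattttcatgcTCAAACa
mcp6, chrII:429622-429651, minus strand: gaTGAAACggcgtatggaaacTGAAACcaa
Over their whole spans arp1 held 11 motifs (7 per kb), jnm1 10 motifs (6.09 per kb), dic1 10 motifs (5.81 per kb), dli1 8 motifs (5.65 per kb) and mcp6 9 motifs (9.15 per kb), where the median of all mRNAs was 1.65 per kb.

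The list for meiotic recombination and chromosome structure held 8 members among 21 genes measured, with 1 more among the excepted IDs. The member rmr1, annotated as a meiotic recombination protein, is not on that list. It had 2.19 and 3.08 with TAP-Mmi1, against 0.0487 and 0.0837 with GFP-Mmi1. mek1, a meiosis-specific checkpoint kinase, had 3864 and 5176 counts in the TAP-Mmi1 IPs against 1817 and 1214 in the TAP-Mmi1 WCEs and 32 and 141 in the GFP-Mmi1 IPs against 1532 and 1500 in the GFP-Mmi1 WCEs. Its ratio with TAP-Mmi1 differed between replicates by more than that of its neighbours in rank (3.2 ± 1.51, SD, n = 2). mcp7, the partner of Meu13 in strand exchange, had 2.61 and 3.55 with TAP-Mmi1 and, with 3 and 43 counts in the control IPs, 0.00306 and 0.0417 with GFP-Mmi1. rec27, a linear element protein, had 3.39 and 1.98 with TAP-Mmi1 and only 1 and 18 counts in the GFP-Mmi1 IPs, or ratios of 0.00302 and 0.0517. The control ratios of both genes thus rest on very few reads. Other linear element genes were closer to the limit, rec10 at 1.31 and 1.56 and rec25 at 0.924 and 1.11 with TAP-Mmi1. rec15, needed for the breaks that start recombination, had 1.37 and 2.09 with TAP-Mmi1. The meiotic cohesin subunit gene rec11 reached 0.832 and 1.23, and moa1, the meikin that keeps sister kinetochores facing 1 pole, 1.2 and 1.02. The control ratios of these 5 genes ran from 0.0119 to 0.0697. meu13, hop1, rdh54, rec6 and rec12 had TAP-Mmi1 ratios between 0.409 and 1.09 and missed the limit in at least 1 replicate, whereas the recombinase gene dmc1 had 0.0279 and 0.0445 with TAP-Mmi1. The same kind of window is shown for 2 of the strongest members of this list, mcp7 and rec27, and for mek1 and rec25, picked after their values were seen because they hold 3 motifs in 30 bases.
mcp7, chrI:578474-578503, plus strand: cttTTAAACtccatatttgtTCAAACtaat
rec27, chrII:757462-757491, minus strand: aatttaatTGAAACtTCAAACttgagaatt
mek1, chrI:5232524-5232553, plus strand: TGAAACtcgtattcTCAAACctcTTAAACa
rec25, chrI:1753574-1753603, minus strand: atccaTAAAACaTGAAACTGAAACaattgc
Windows with 3 motifs occurred in 3 of the 89 protein-coding members (mek1, rec25 and SPCC70.04c) and in 9 of all 4941 protein-coding mRNAs with at least 200 counts in each WCE. In mek1 the window lies near the 3′ end of the coding sequence, and in rec25 it lies in the coding sequence near the 5′ end.

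Among other meiotic genes, rep1, an activator of the MBF transcription factor that acts in premeiotic DNA synthesis, had 12148 and 12019 counts in the TAP-Mmi1 IPs against 3667 and 2448 in the TAP-Mmi1 WCEs. The GFP-Mmi1 IPs held 102 and 274 counts of it against 2210 and 2392 in the GFP-Mmi1 WCEs, so the ratio was 4.11 ± 1.13 with TAP-Mmi1, against 0.0804 ± 0.0484 with GFP-Mmi1. mug45, a gene named for its upregulation in meiosis, gave 3.39 and 4.08 with TAP-Mmi1, against 0.028 and 0.107 with GFP-Mmi1. meu32, likewise named for meiotic expression, gave 3.37 and 4.34 with TAP-Mmi1, against 0.0899 and 0.0654 with GFP-Mmi1. These 3 had control ratios of at most 0.115. rep1 and mug45 carried the most motifs of the 20 members with the highest ratios, and their densest windows follow.
rep1, chrII:2976946-2976975, plus strand: tatTTAAACttatacattataTTAAACttt
mug45, chrII:3638753-3638782, plus strand: acgtcgagTTAAACcaTAAAACacaagtag
Of 118 genes whose names begin with mug, meu, mcp or mde, 8 were members and 3 excepted IDs, and their median TAP-Mmi1 mean ratio was 0.141, close to that of all mRNAs. Of 16 mRNAs listed as Mmi1 targets, 5 were members (meu32, rec10, mcp3, mcp7 and mcp6) and 7 were excepted IDs, with a median mean ratio of 3.10. That list, like the other gene lists used here, was drawn up with earlier results of these data known. mcp3, with the largest number of motifs of any member (19 motifs (4.88 per kb)), had ratios of 1.85 and 2.63 with TAP-Mmi1, against 0.0217 and 0.0549 with GFP-Mmi1. Genes for entry into meiosis and mating gave 4 members of 21 (rep1, byr2, rgs1 and fus1), with 2 more among the excepted IDs. byr2, the MAP kinase kinase kinase of pheromone signalling, had 1.19 and 1.32 with TAP-Mmi1, against 0.0718 and 0.0565 with GFP-Mmi1. Sporulation genes gave 1 of 15, the chitin synthase gene chs1, at 1.92 and 2.87 with TAP-Mmi1, against 0.037 and 0.0891 with GFP-Mmi1. Altogether 22 of the 91 members were on at least 1 of the meiotic lists or the list of targets.

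The majority of members had no place on a meiotic list. The lists do not hold every meiotic gene, since dic1 and rmr1, described above, were on none of them. agl1, an alpha-glucosidase gene, had 2.56 and 3.63 with TAP-Mmi1, against 0.0394 and 0.0746 with GFP-Mmi1. ggc1, a mitochondrial guanine nucleotide carrier gene, gave 2.74 and 3.39 with TAP-Mmi1, against 0.0645 and 0.102 with GFP-Mmi1. stb3, a transcription factor gene, had 2.28 and 3.76 with TAP-Mmi1, against 0.0761 and 0.0843 with GFP-Mmi1. All 3 had between 2 and 5 motifs in spans that differ in length, or 0.651 to 3.24 per kb. tgp1, the plasma membrane glycerophosphodiester transporter gene that is repressed by transcription of an upstream non-coding RNA when phosphate is plentiful, reached 2.52 and 3.16 with TAP-Mmi1, against 0.0503 and 0.0532 with GFP-Mmi1. prt2, the non-coding RNA upstream of pho84, had 1.15 and 2.13 with TAP-Mmi1, against 0.0563 and 0.0851 with GFP-Mmi1. The span of prt2 shares 1870 nt on the same strand with pho84, whose own mean TAP-Mmi1 ratio was 0.0859. The transcription and chromatin list gave 5 members of 15, with 2 more among the excepted IDs. The members were cdk9 (the P-TEFb kinase), bdf1 (a bromodomain protein), chp2 (a heterochromatin protein), gaf1 (a nutrient-responsive GATA factor) and pcf1 (a histone chaperone subunit). Their mean ratios with TAP-Mmi1 lay between 0.855 for pcf1 and 1.19 for chp2. The span of cdk9 (mean ratio 1.06) shares 115 nt on the same strand with mei4, an excepted ID at 3.45. That of pcf1 shares 127 nt on the opposite strand with spo5, an excepted ID at 0.732. The part of shared reads in either ratio was not tested. rps2202, which encodes ribosomal protein uS8, had 2.56 and 2.81 with TAP-Mmi1, against 0.0169 and 0.0951 with GFP-Mmi1, and rpl3002, for eL30, had 1.1 and 1.61 with TAP-Mmi1, against 0.0323 and 0.0721 with GFP-Mmi1. These were 2 of 139 cytosolic ribosomal protein genes, whose median mean ratio was 0.0335 with TAP-Mmi1 and 0.0308 with GFP-Mmi1. None of the 17 measured genes of the Mmi1 pathway and RNA elimination list was a member, although 1 was an excepted ID, and none of 11 genes of mitotic cell cycle entry was. Single members came from the lists for purine synthesis (ade5, 1.68 and 2.43 with TAP-Mmi1) and mitochondria (cox12, 0.892 and 0.902 with TAP-Mmi1), and the cell wall list added agl1, bgl2 and chs1.

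**Figure D2:**
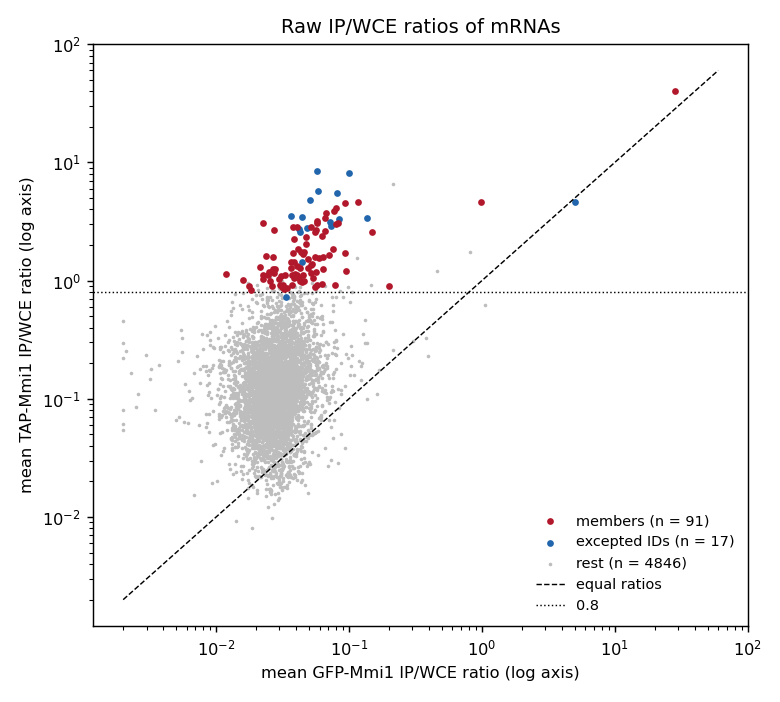
Mean TAP-Mmi1 IP/WCE ratio against mean GFP-Mmi1 IP/WCE ratio of raw counts, both on log axes, for the 91 members, the 17 excepted IDs and the other 4846 mRNAs with at least 200 counts in each WCE, with values under 0.002 drawn at 0.002. The members sit above 0.8 on the vertical axis by their choice, and most have control ratios below 0.1, while apc10 and SPBC1921.04c lie far to the right.

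Members near the limit differed little from mRNAs just under it. The lowest inside were SPCC569.04 (smaller ratio 0.801), pus2 (0.801), dad5 (0.802), SPCC594.04c (0.803) and fus1 (0.806). Just outside were SPAPB1A10.07c (0.796), sim4 (0.794), alp21 (0.792), new20 (0.788) and wtf15 (0.776). With a limit of 1 in place of 0.8 there were 55 members, and with 0.6 there were 140. When the counts were divided by library totals first, 161 IDs passed, the 91 among them.

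The comparison of the GFP-Mmi1 IP with the GFP-Mmi1 WCE asked how the members behaved in a pulldown without a TAP tag. The GFP-Mmi1 IPs had no part in the choice of members. The GFP-Mmi1 WCEs did not enter the ratio limit but did enter the minimum count asked of every WCE library. Each feature was set against the typical feature by TMM scaling in 1 edgeR quasi-likelihood fit of all 8 libraries. Of the 91 members, 36 were higher in the GFP-Mmi1 IP at a Benjamini-Hochberg adjusted p under 0.05 and 1 was lower, where 11.1% of all 6827 features tested were called higher and 6.44% lower. The median log2 difference of GFP-Mmi1 IP over GFP-Mmi1 WCE was 0.62 for members and -0.04 for all mRNAs, and 75 of the 91 members lay above that of all mRNAs. Of the 36, 22 had a log2 difference above 1. apc10 was the highest at 9.98 (SE 1.23, adjusted p = 0.00236), then SPBC1921.04c at 5.10 (SE 0.42, adjusted p = 0.000325) and SPCC1235.17 at 2.80 (SE 0.19, adjusted p = 0.000136), all by edgeR. With the extract as a block, which pairs each IP with its WCE, apc10 was at 9.90 and was not called (edgeR adjusted p = 0.0528), nor was it without GFP-Mmi1 replicate 2 (adjusted p = 0.0633). The block also ended the calls of cdk9, rec15, rhp7 and SPCC70.04c (edgeR adjusted p between 0.0587 and 0.126) and added agl1 and chs1 (adjusted p = 0.011 and 0.0298). fta7, a kinetochore protein gene with control ratios of 0.173 and 0.123, followed at 2.39 (SE 0.31, adjusted p = 0.00285), and aga1 at 2.05 (SE 0.31, adjusted p = 0.00504), by the same edgeR test. rec25 was the member called lower, at -0.83 (SE 0.14, adjusted p = 0.00892) in edgeR, with 69 and 77 counts in the GFP-Mmi1 IPs against 4545 and 4584 in the GFP-Mmi1 WCEs. On the opposite strand, pex6 covers 80.2% of the rec25 span and had a mean GFP-Mmi1 ratio of 0.0176. The part of shared reads in this call was not tested. The other members with the lowest values, SPCC622.05 (-1.26), cox12 (-0.68), SPCC569.04 (-0.62) and tho5 (-0.41), did not pass the test.

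The number of members called in the control depended on single libraries. Replicate 2 of the GFP-Mmi1 IP had the higher ratio in 63 members, against 44.9% of all mRNAs. In mug45 the control counts were 69 and 276, in mek1 32 and 141, in rps2202 62 and 317 and in rep1 102 and 274, while the GFP-Mmi1 WCE counts of mug45 were 2463 and 2580 and those of mek1 1532 and 1500. Without GFP-Mmi1 replicate 2 there were 9 members called higher, where 3.84% of all features were. Without GFP-Mmi1 replicate 1 there were 34, beside 5.71%. Without TAP-Mmi1 replicate 1 or replicate 2, which enter this contrast only through the spread and the scaling, there were 14 (beside 5.8% of all features) and 13 (beside 4.66%). In each of the 4 fits that left out 1 extract (the IP and WCE of 1 strain and replicate), 7 members were called higher, namely SPBC1921.04c, SPCC1235.17, bgl2, dad5, jnm1, meu32 and stb3. With library totals in place of TMM, the median log2 difference of all mRNAs was -5.09 in place of -0.04, and 1 member was called higher and 89 lower, beside 0.747% and 98.2% of all features. Higher and lower in the control therefore hold only relative to the typical feature.

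**Figure D3:**
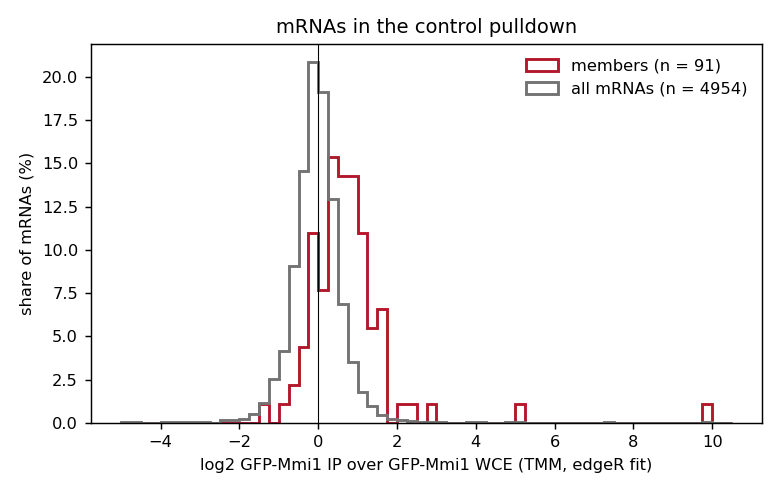
Share of mRNAs in bins of the log2 difference of GFP-Mmi1 IP over GFP-Mmi1 WCE from the edgeR fit, for the 91 members and all 4954 mRNAs. The members are shifted to higher values (median 0.62 beside -0.04), and the separate bars on the right are SPCC1235.17, SPBC1921.04c and apc10.

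The difference between the strains is given as a description only. In the IP/WCE difference of TAP-Mmi1 minus GFP-Mmi1, which contains the contrast that chose the members, the median log2 value was 2.83 for members beside -0.17 for all mRNAs. Of the 91, 88 were called higher by edgeR and none lower, where 18.9% of all features were called higher and 23.7% lower. DESeq2 also called 88 higher and none lower, beside 25.1% and 26.0% of all features. At an unadjusted p under 0.05, edgeR had 88 members higher and none lower, beside 1602 and 1899 of all 6827 features. mcp7 (4.75 (SE 0.69)), rec27 (4.34 (SE 0.88)) and SPCC622.05 (4.28 (SE 0.46)) had the largest log2 values. apc10 (-1.62 (SE 1.21)), SPBC1921.04c (-0.26 (SE 0.50)) and SPCC1235.17 (-0.11 (SE 0.25)) were not called, and no other members were without a call. With the extract as a block, hsp3105 and rps2202 were not called either.

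The level of the members in the extracts was compared between strains, although the TAP-Mmi1 WCE is the denominator of the ratio. Counts per nt of annotated span, averaged over the 4 WCE libraries scaled to their mean total, ran from 0.174 to 8.88 among the 90 members with a length, with a median of 1.15 beside 1.76 for all mRNAs. rgs1, a regulator of G protein signalling, was the highest at 8.88 ± 1.48, followed by pcl1 (6.68 ± 0.361), pcf1 (5.33 ± 0.851), rps2202 (5.28 ± 0.493) and gaf1 (4.09 ± 0.313, SD over the scaled WCE libraries, n = 4). Only bgl2, a glucan beta-glucosidase gene, was called in TAP-Mmi1 WCE over GFP-Mmi1 WCE, at a log2 difference of 1.06 (SE 0.12, adjusted p = 0.0153) in edgeR, where 0.293% of all features were called higher and 0.0586% lower. Its counts were 5576 and 4430 in the TAP-Mmi1 WCEs against 2047 and 2005 in the GFP-Mmi1 WCEs, without overlap. The call was lost in each fit that left out 1 extract, while the log2 difference stayed between 1.05 and 1.07. Those fits called between 0 and 4 features of any kind. At an unadjusted p under 0.05, edgeR had 6 members higher and 4 lower, beside 6.39% and 2.55% of all features, and DESeq2 called 5 higher and 1 lower, beside 3.91% and 1.52% of all features. SPBC1921.04c had a larger log2 difference (1.78) without passing the test. Below bgl2 came rgs1 (0.57), chs1 (0.49) and ggc1 (0.47), and the lowest those of bqt1 (-0.43), gmh6 (-0.40), cwf20 (-0.39), SPCC569.04 (-0.33) and efm6 (-0.29). In a bulk extract, more cells with an RNA and more RNA per cell cannot be told apart.

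The Mmi1 motif was not used to choose the members. It was searched as TNAAAC on the sense strand of the annotated gene span of 89 protein-coding members and of all 4941 protein-coding mRNAs with at least 200 counts in each WCE. At least 1 motif was found in 86 members (96.6%), beside 91.5% of all mRNAs, so nearly every mRNA had one. The density differed more. The median was 2.97 motifs per kb in members, 4.96 in the 17 excepted IDs and 1.64 in the remaining mRNAs. More than 5 motifs per kb occurred in 18 members (20.2%) and in 1.38% of all mRNAs. At least 2 motifs within 30 bases were found in 35 members (39.3%), 11 excepted IDs (64.7%) and 10.5% of the remaining mRNAs, as in the windows printed above for the motor and recombination genes. On the antisense strand the pooled density was 2.35 per kb in members and 2.01 in the remaining mRNAs, a smaller gap than the 3.16 and 1.73 of the sense strand. Members were slightly poorer in G and C (median 35.7% of bases beside 36.8% in the remaining mRNAs) and shorter (median span 1643 and 1812 nt). The part of base composition in the motif density was not tested.

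Motifs were denser in the members with the highest ratios. This split goes by the ratio that chose the members, so it is a description and was not tested. The 25 members with a mean ratio above 2 had a median of 4.80 motifs per kb and 14 of them held 2 motifs within 30 bases (56%), while the other 64 had a median of 2.66 and 21 did (32.8%). The densest were rec27 (14 per kb), moa1 (13.5), SPBC1921.04c (9.78), bqt1 (9.62), mcp6 (9.15), dni2 (7.8), tht2 (7.14), mug45 (7.04), arp1 (7) and mcp7 (6.67). dni2 encodes a claudin-like membrane protein and tht2 a protein of nuclear fusion. No motif was found in rbd2, a Golgi rhomboid protease gene, or in SPCC569.04. dad5, a subunit gene of the DASH complex of the kinetochore, had none either. Among members with a mean ratio above 2, agl1, aga1, apc10, mug165, tgp1 and stb3 had fewer motifs per kb than the median of all mRNAs. Of the 507 motifs in members, 318 lay in coding sequence, 120 in the 3′ untranslated region, 53 in the 5′ untranslated region and 16 in introns. Per kb of each region, members exceeded the remaining mRNAs in all 4 (2.92 and 1.68 in coding sequence, 3.53 and 1.85 in the 3′ and 4.17 and 1.92 in the 5′ untranslated region, and 3.21 and 1.75 in introns). The Mei2 motif, searched as TTTG, TTGG or TTAG, had a median of 16.7 per kb in members and 17.0 in the remaining mRNAs.

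**Figure D4:**
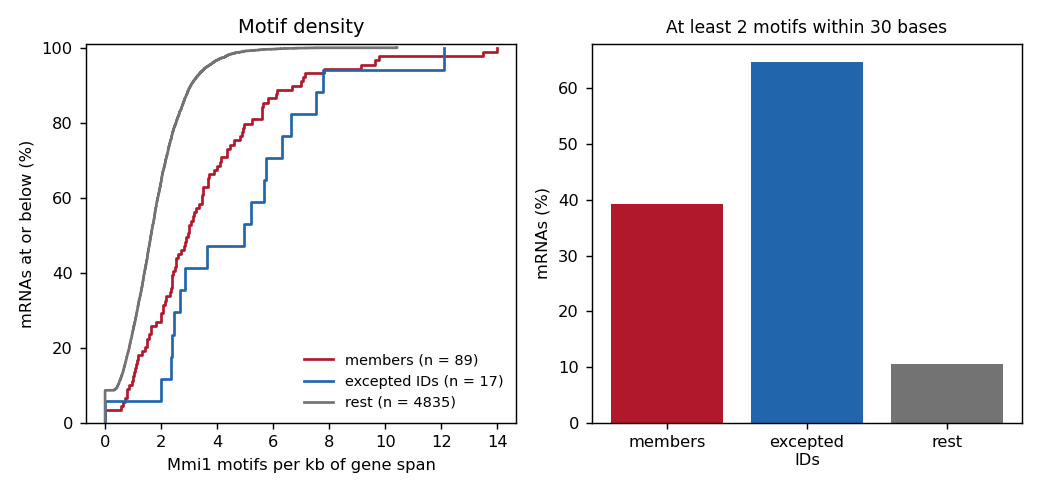
Left, cumulative share of mRNAs by Mmi1 motifs per kb of gene span, for 89 protein-coding members, 17 excepted IDs and the remaining 4835 protein-coding mRNAs. Right, share of each set with at least 2 motifs within 30 bases (39.3%, 64.7% and 10.5%), with bars starting at 0.

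Many members share their place in the genome with another listed feature. Some overlap was found for 57 of 90 members (63.3%), beside 58.1% of all mRNAs, and for 55 of the 57 a partner lay on the opposite strand. The tool named for the counting, MulticovBed, counts reads over intervals, and no strand setting is given in the sources used here, so reads of a member and of its antisense partner cannot be told apart. For 22 members the partner covered at least 50% of the span, and in 13 of these it had a mean TAP-Mmi1 ratio within a factor of 1.25 of the member's. mcp6 and the antisense SPNCRNA.1356, which spans it whole, had mean ratios of 2.84 and 2.66. jnm1 and SPNCRNA.1198 had 3.40 and 3.50, mcp3 and SPNCRNA.1044 2.24 and 2.22, and meu26 and SPNCRNA.827 1.70 and 1.65. The TAP-Mmi1 IP counts were 4122 and 3401 for mcp6 and 4487 and 3555 for SPNCRNA.1356. rec15 lies within SPBC1711.15c on the other strand, and both were members (1.73 and 1.67). rec27 shares 629 nt with tho5, a subunit gene of the THO mRNA export complex, and both were members at 2.68 and 1.29. The higher ratio fell to the partner in 8 of the members covered by at least 50%, namely jnm1, ggc1, fus1, SPBC1711.15c, cwf20, ynd1, SPCC70.08c and SPCC594.03.

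Other overlapping pairs had unequal ratios. SPAC6G10.10c lies almost entirely within gls1, yet had a mean ratio of 1.11 where gls1 had 0.0916. meu43 is covered by neo1 and srb4, a Mediator subunit gene, by ggg1, with 1.29 and 1.33 for the members against 0.473 and 0.548 for the partners. hsp3105, a glyoxalase gene, shared 746 nt on its own strand with SPNCRNA.243, which had 6.86 where hsp3105 had 1.20. An overlapping feature above 0.8 in both replicates was found for 27 members (30%), beside 1.55% of the remaining mRNAs, and the part of shared reads in this was not tested. Among the 33 protein-coding members that overlap no listed feature, 12 (36.4%) held 2 motifs within 30 bases, beside 10.2% of all such mRNAs. Their median density was 2.42 motifs per kb, beside 1.62 in all such mRNAs and 2.97 in all protein-coding members. The part of overlaps in the motif counts was not tested.

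**Figure D5:**
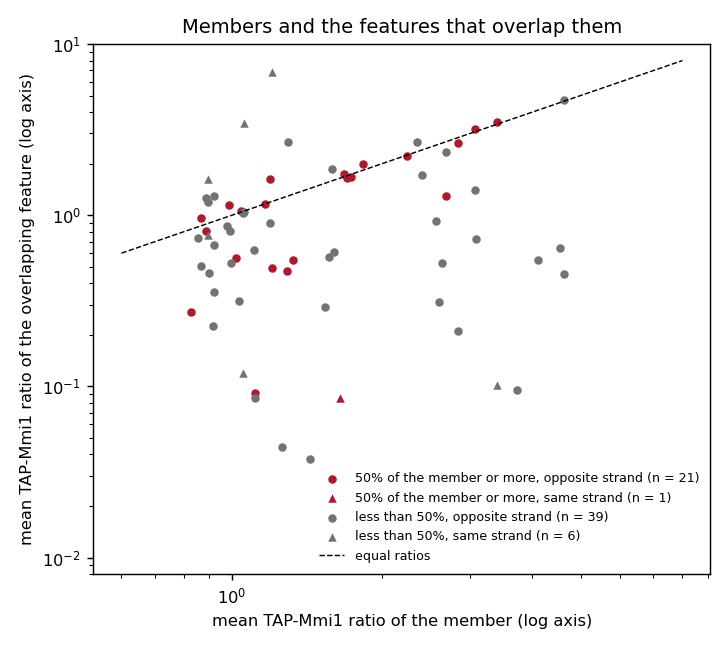
Mean TAP-Mmi1 ratio of each feature that overlaps a member, on the vertical log axis, against that of the member, on the horizontal log axis, by strand and by the share of the member covered. Opposite-strand partners that cover at least 50% of the member often lie on the dashed line of equal ratios, as for mcp6, jnm1 and mcp3, while of 45 partners with a smaller overlap 10 lie above it.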

How the data were processed

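The authors demultiplexed the reads (bcl2fastq 2.18.12), trimmed adapters (cutadapt 1.15), mapped the paired 75 nt reads by Bowtie2 and obtained counts from MulticovBed, and they deposited raw read counts per feature, 1 table per library, without normalization. The genome build, annotation and strand setting are not given in the sources used here. The row that names no gene (0.0018% to 0.0552% of counts) was left out. Members and gene lists were chosen with earlier results of these data known.

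Ratios used counts as deposited. Differences were tested with edgeR 4.0.16 (R 4.3.3, filterByExpr, TMM, robust quasi-likelihood) in 1 fit of 4 groups with 2 libraries each. Adjusted p-values cover all 6827 features tested, with a threshold of 0.05. SE was derived by dividing the size of the log2 difference by the root of F. The labels do not say that replicates were separate cultures, so p-values measure the spread between these samples. An IP and a WCE of the same strain and number come from 1 extract by the study's methods, which pairs them. Their deviations correlated at 0.0603 with TAP-Mmi1 and 0.0060 with GFP-Mmi1. In data simulated for the GFP-Mmi1 contrast, 200 of 200 features changed by a factor of 4 were recovered, among 206 calls over 6827 features. All simulated features had the same dispersion, and the changed ones were drawn from those with higher counts. The simulation therefore does not cover members with few control counts or features with a larger spread. Replicates differed by more than counting noise (chi-square over degrees of freedom 29.4 to 461).

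Motifs, gene structure and overlaps came from the RefSeq sequence and annotation of ASM294v3, matched by ID (Python 3.11.15, pandas 2.3.3). Named genes are the 20 members with the highest mean ratio, 5 extremes on each side in the GFP-Mmi1 and WCE contrasts and 5 on each side of the limit, the 5 highest per nt, list members, the 10 densest in motifs, those without motifs, and members covered by at least 50% by a feature of higher ratio. Others were picked after their values were seen. Alternatives were library totals, DESeq2 1.42.0, no filter on low counts, each extract (its IP and WCE) left out, extract or number as a replicate block, other limits of the rule, other motif and overlap definitions and, chosen after seeing the data, rRNA features left out, motif windows and members without overlaps.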

Additional observations from a re-analysis of the deposited data

How the results depend on the processing

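The number of members was 95 with at least 100 counts in each WCE and 83 with at least 500, and moved to 55 and 140 with ratio limits of 1 and 0.6, to 161 with counts scaled to library totals, and to between 95 and 154 when 1 TAP-Mmi1 replicate was left out. In the GFP-Mmi1 IP against its WCE, 37 members were called in edgeR (36 higher), between 10 and 35 without 1 extract, 34 with extract as a replicate block, 37 without a filter or without rRNA features, 45 with DESeq2, and 90 with library totals, where the direction reversed (89 lower) and the median of all mRNAs was -5.09 on the log2 scale. With library totals the log2 values of aga1, SPCC1235.17 and fta7 were -3.02, -2.25 and -2.66. In the IP/WCE difference of TAP-Mmi1 minus GFP-Mmi1, 88 members were called, all higher, beside 18.9% of all features higher and 23.7% lower. The extract block gave 86, beside 15.6% and 20.9%. No filter, no rRNA features and DESeq2 each gave 88, beside 18.3% to 25.1% higher and 19.9% to 26.0% lower. Library totals gave 90, beside 89.5% higher and 0.469% lower. Without 1 extract, the median log2 value of members lay between 2.63 and 3.00. In the TAP-Mmi1 WCE against the GFP-Mmi1 WCE, 1 member was called, 0 with library totals, 0 without any 1 extract, 6 with DESeq2 and 20 with replicate number as a block (15 higher and 5 lower, beside 10.7% and 7.77% of all features), a pairing that the labels do not explain, and the cause was not tested. A motif was found in 86 members on the gene span, in spliced exons and on the antisense strand alike, in 80 at least 2, in 35 at least 2 within 30 bases, and in 31 of the 33 members without overlap. Overlaps counted 57, 22 when at least 50% of the member had to be covered and 6 on the same strand. Apart from this and the calls named above, the block changed no call of a member.

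With 2 libraries per group, counting error in the GFP-Mmi1 IPs limits the control: 25 members had fewer than 30 counts in at least 1 of them, and PCR reads are not independent molecules. With an extract left out, the lone sample of a group is assumed to vary like the others. Where an antisense partner overlaps a member, their reads cannot be told apart.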
